A study of Mus musculus with 8 samples.

Results

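Scml2 and 9 further genes of the Polycomb group were examined in testis RNA of mice with and without CTCFL. CTCFL, or BORIS, is a germ cell paralog of CTCF, the zinc finger protein that organises chromatin. The genes are Scml2, Ezh1, Ezh2, Eed, Suz12, Rnf2, Ring1, Bmi1, Cbx2 and Phc1, and every probe set that the deposited annotation assigns to them was taken, 25 of the 45101 on the array. Scml2 was chosen by its measured difference between the genotypes on these same arrays, and the other 9 genes by their function beside it. The mutant-wildtype values of these 10 genes are therefore given as a description, without a test.

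Total RNA came from testis at postnatal day 23 and was hybridised to Affymetrix Mouse430_2 arrays, with 1 array per sample. The labels give 5 wildtype samples, numbered 1, 2, 4, 6 and 7, and 3 mutant samples, numbered 3, 5 and 8. In the study the mutants are homozygous for a Ctcfl allele that lacks the first exons of the gene in all cells, and the controls are described as heterozygous littermates carrying 1 copy of that allele. The name wildtype of the labels is kept here, and the labels do not say whether a sample is 1 animal or a pool. Where samples are not separate animals, the spread given here would be partly technical. The targeted gene was not analysed here and gives no check of the genotype labels.

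Polycomb proteins keep genes silent by modifying histones. Polycomb repressive complex 2 (PRC2), built on EZH1 or EZH2 with EED and SUZ12, methylates histone H3, and PRC1, built on the E3 ligases RING1 or RNF2, ubiquitylates histone H2A. SCML2 is a PRC1-associated protein of male germ cells, best known from spermatogonia and spermatocytes, where it takes part in silencing somatic genes and in organising the chromatin of the sex chromosomes during meiosis. Its gene lies on the X chromosome, while the other 9 genes are on autosomes.

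The promoter windows of Scml2 and Ezh2 are shown because these were the genes with a probe set whose genotype groups did not overlap, as described further on. Each is the 250 bases before a transcription start listed by RefSeq on GRCm38.p6, written 5′ to 3′ on the strand of the gene, with each CG dinucleotide in capitals. The Scml2 window lies on the plus strand at chrX:161162500-161162749, and the Ezh2 window lies on the minus strand at chr6:47595031-47595280.
Scml2: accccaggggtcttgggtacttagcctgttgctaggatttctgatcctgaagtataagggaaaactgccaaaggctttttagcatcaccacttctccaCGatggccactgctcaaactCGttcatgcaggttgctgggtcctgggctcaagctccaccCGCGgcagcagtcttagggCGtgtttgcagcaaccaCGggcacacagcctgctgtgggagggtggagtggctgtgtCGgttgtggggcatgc
Ezh2: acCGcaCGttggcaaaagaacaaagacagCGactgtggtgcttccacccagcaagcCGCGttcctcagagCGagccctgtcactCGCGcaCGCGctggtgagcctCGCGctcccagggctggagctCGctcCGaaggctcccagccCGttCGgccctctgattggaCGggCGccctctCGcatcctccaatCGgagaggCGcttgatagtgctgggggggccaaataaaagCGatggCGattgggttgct

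The Scml2 window held 7 CG dinucleotides and the Ezh2 window 23. Over all 32851 windows of that length in the RefSeq table the median was 6, and 46.3% held at least 7 while 13.3% held at least 23. A window was listed for 9 of the 10 genes, and Scml2 had the fewest of them. Phc1 had 8, Eed 12, Ezh1 14, Rnf2 20, Bmi1 21, Ring1 30 and Suz12 37 CG dinucleotides. The starts used for Scml2 and Ezh2 both lie inside the spans that RefSeq gives these genes, and most of the Ezh2 window lies within its span. These letters say nothing of which start was used in these testes.

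Scml2 was represented by 2 probe sets, and only on 1456984_at did the genotype groups not overlap. On probe set 1456984_at the log2 level was 7.37, 7.56, 7.48, 7.42 and 7.74 in wildtype replicates 1, 2, 4, 6 and 7. It was 7.96, 8.36 and 7.98 in mutant replicates 3, 5 and 8. All 3 mutant values lay above all 5 wildtype values, with mutant replicate 5 highest and wildtype replicate 7 nearest to the mutants. The wildtype mean was 7.52 ± 0.14 (SD, n = 5) and the mutant mean 8.10 ± 0.23 (SD, n = 3), a difference of 0.58 (SE 0.12) on the log2 scale.

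The other probe set, 1421514_a_at, has the suffix that marks a set recognising more than 1 transcript of the same gene. Its log2 level was 8.998, 8.95, 8.88, 8.82 and 8.99 in wildtype and 8.98, 9.27 and 8.93 in mutant testis, in the same order of replicates. Here mutant replicate 5 alone lay above the wildtype range, and the other mutants fell within it. The difference was 0.13 (SE 0.09), between 8.93 ± 0.08 (SD, n = 5) and 9.06 ± 0.18 (SD, n = 3). Without mutant replicate 5 it was 0.028. By the rule used for every gene, which prefers the probe set with the higher mean, 1421514_a_at is the main probe set of Scml2. The annotation of both probe sets also names a second locus, LOC100047360, and how much of the signal comes from either was not tested.

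**Figure D1:**
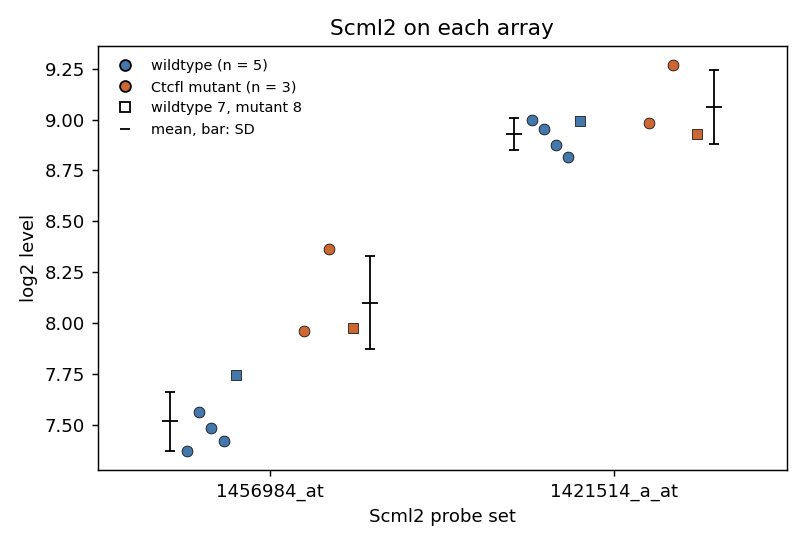
Log2 level (vertical axis) of the 2 Scml2 probe sets (horizontal axis) on each array, for 5 wildtype (blue) and 3 Ctcfl mutant (orange) samples, with squares for wildtype replicate 7 and mutant replicate 8 and black bars for the mean and SD. On 1456984_at the mutants sit between 7.96 and 8.36, above all wildtype values, while on 1421514_a_at the groups overlap.

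The unequal change of the Scml2 probe sets can be read on each array as the log2 level of 1456984_at minus that of 1421514_a_at. This value was -1.63, -1.39, -1.39, -1.40 and -1.25 on the wildtype arrays and -1.02, -0.90 and -0.95 on the mutant arrays. The groups did not overlap, with means of -1.41 ± 0.14 (SD, n = 5) and -0.96 ± 0.06 (SD, n = 3), which differ by 0.45. Since 1456984_at was itself selected on this contrast, the gap is a description. The deposited files do not give the probe positions, so which part of the transcript each set reads is not known here.

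Over all probe sets a pair of arrays, wildtype replicate 7 and mutant replicate 8, lay far from the rest. Their scores on the first principal component (44.9% of the variance) were 40.2 and 38.2, while those of the other arrays ran from -24.8 to -3.10. Spermatid transcripts moved with these arrays. The mean log2 level of 12 spermatid marker genes reached 11.17 in wildtype replicate 7 and 10.77 in mutant replicate 8, against 8.60 to 9.41 elsewhere. The mean over 9 fat marker genes was 7.54 and 7.48 on this pair, against 5.72 to 6.405 elsewhere. In whole testis RNA, fewer cells of a type and less RNA per cell cannot be told apart.

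Scml2 was higher in the mutants on 1456984_at both inside and outside this pair of arrays. Without the pair, the remaining 6 arrays gave a difference of 0.70, and mutant replicate 8 exceeded wildtype replicate 7 by 0.23. With the pair as a block the fitted difference was 0.57 (SE 0.11). On 1421514_a_at the 6 arrays gave 0.21 and the pair gave -0.061, so that probe set went opposite ways. SCML2 is best known from spermatogonia and spermatocytes. Spermatogonia markers had a mean log2 level of 7.97, 7.98 and 7.77 in mutant replicates 3, 5 and 8 and of 7.66 to 7.85 in wildtype testis. Of the 11 spermatogonia genes, 10 had a higher mean in mutant testis, and the groups overlapped through mutant replicate 8. A higher mean in the mutants was also found for 10 of 12 Sertoli, 6 of 7 Leydig, 4 of 6 peritubular and 4 of 6 macrophage genes. It was found for only 3 of 11 spermatocyte, 2 of 9 fat and 0 of 12 spermatid genes. Over the whole array 23219 of 45101 probe sets had a higher mean in the mutants. Genes of a list were read on the same arrays, so these counts are not independent readings. Stra8, expressed from late spermatogonia to preleptotene spermatocytes, had a log2 level of 9.05, 8.95 and 8.67 in the mutants and of 8.74 to 8.84 in wildtype. The paper reports Stra8 as bound by CTCFL and raised by it in ES cells. In animals lacking CTCFL it describes Stra8 as changed at certain ages only. The part of CTCFL or of cell share in these Stra8 levels was not tested. From the same list, Kit differed by 0.097 and Zbtb16 by -0.058. The part of these cell types in the Scml2 values was not tested.

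**Figure D2:**
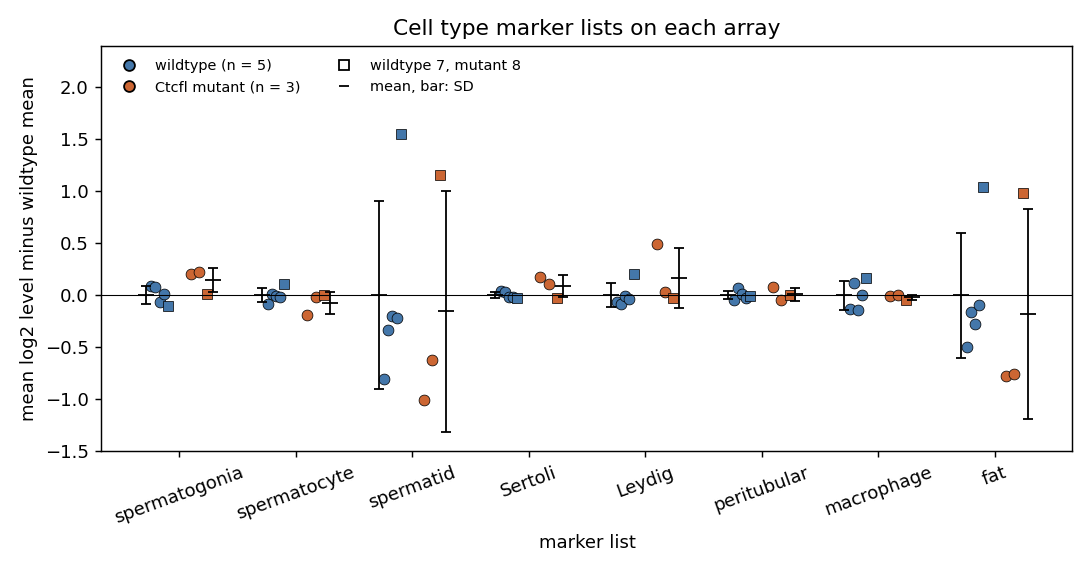
Mean log2 level of each of 8 cell type marker lists (horizontal axis), as the difference from the wildtype mean of that list (vertical axis), on each array, with squares for wildtype replicate 7 and mutant replicate 8 and black bars for the mean and SD of 5 wildtype and 3 mutant samples. The squares stand high in the spermatid and fat lists, and 2 of the 3 mutants lie above the wildtype arrays in the spermatogonia list.

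The testis markers were present as the tissue label says, with Sycp3, a protein of the chromosome axis in meiosis, between 12.39 and 12.77 on the 8 arrays. The Leydig list, of steroid-producing cells, was at 9.08, 8.61 and 8.55 in the mutants and 8.50 to 8.78 in wildtype. The Sertoli list, of the supporting cells of the tubule, was at 8.86, 8.79 and 8.65 in the mutants and 8.65 to 8.72 in wildtype. In both lists mutant replicate 3 was highest. Spermatocyte markers lay between 10.46 and 10.77 on all arrays, and the peritubular and macrophage lists overlapped between the genotypes.

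Across the array as a whole, 0% of probe sets passed a limma adjusted p of 0.05, the lowest value being 1.0. At an unadjusted p under 0.05 there were 1564 probe sets, or 3.47% of those tested, with 1.76% higher and 1.70% lower in mutant testis. The groups did not overlap for 1216 probe sets, or 2.70%, with 1.38% higher and 1.31% lower. Among the 25 Polycomb probe sets the groups did not overlap for 2, these being 1456984_at of Scml2, higher in the mutants, and the probe set of Ezh2, lower. The members were chosen with this contrast known, so nothing is read from this count. The median difference of the 25 probe sets was -0.0092, against 0.0032 over all probe sets, with 11 higher and 14 lower in mutant testis. Their median within-group SD was 0.14, against 0.13 over all probe sets.

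**Figure D3:**
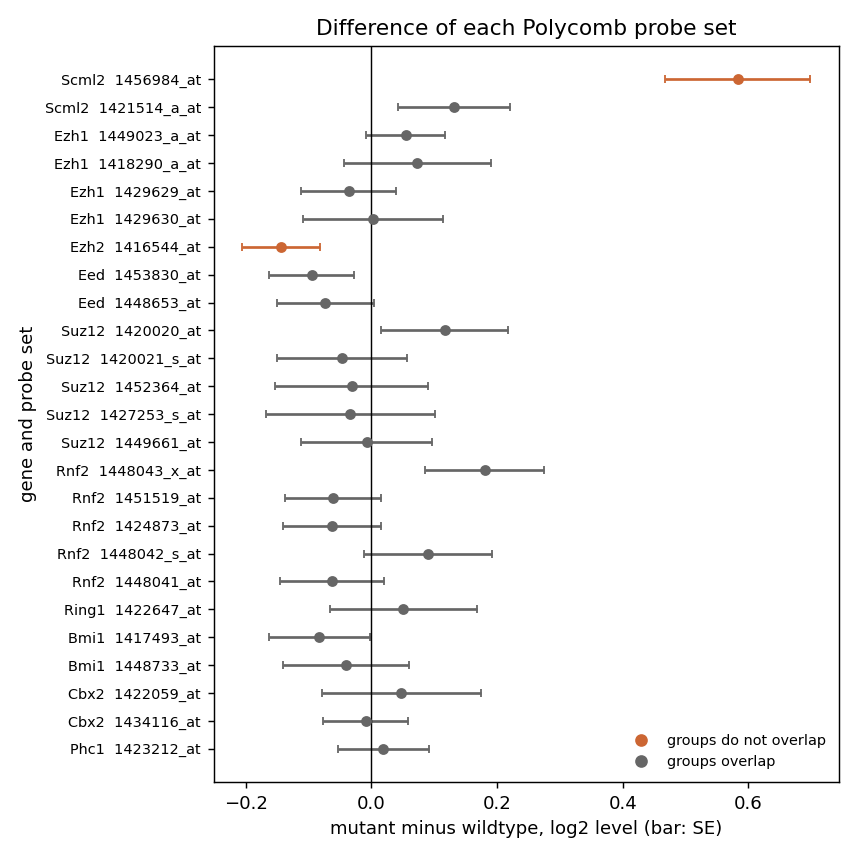
Difference in log2 level between mutant and wildtype testis (horizontal axis, point, with bar for the SE) of the 25 probe sets of the 10 genes (vertical axis), in orange where the values of 3 mutant and 5 wildtype arrays do not overlap. The point for 1456984_at of Scml2 lies at 0.58, and the others lie between -0.14 and 0.18.

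The catalytic subunits of PRC2 came first among the other genes. Ezh2, the methyltransferase of dividing cells, had a log2 level of 10.84, 10.78, 10.72, 10.70 and 10.81 in wildtype replicates 1, 2, 4, 6 and 7 and of 10.60, 10.65 and 10.63 in mutant replicates 3, 5 and 8. The groups did not overlap, although the lowest wildtype and the highest mutant value were close. The means were 10.77 ± 0.06 (SD, n = 5) and 10.63 ± 0.03 (SD, n = 3), a difference of -0.14 (SE 0.06), or 0.905-fold. It was -0.13 among the 6 arrays that lay together and -0.19 within the pair. Over the 16 alternatives run, some of which cannot alter it, the difference stayed between -0.16 and -0.13. In size it lay near the 0.13 of the main Scml2 probe set, below the 0.58 of 1456984_at, and it comes from a single probe set.

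Ezh1, the paralog that prevails in cells that do not divide, was read by 4 probe sets. Its main probe set, 1449023_a_at, was at 8.93, 8.92, 8.82, 8.91 and 8.96 in wildtype and at 8.94, 8.93 and 9.02 in mutant testis. The groups overlapped, with mutant replicate 8 highest, and the difference was 0.054 (SE 0.062). The other 3 gave 0.073, -0.036 and 0.0030, and lay below the median mean level of the array.

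Eed, the PRC2 subunit that binds the methyl mark, was read by 2 probe sets. On 1448653_at the level was 10.34, 10.32, 10.13, 10.20 and 10.32 in wildtype and 10.15, 10.30 and 10.12 in mutant testis, a difference of -0.073 (SE 0.077). The mutants lay within or just below the wildtype range. On 1453830_at the level was 7.21 to 7.39 in wildtype and 7.19, 7.22 and 7.25 in the mutants, a difference of -0.095 (SE 0.068). Both probe sets were lower on average in mutant testis under each of the 16 alternatives, some of which cannot alter a difference. The groups overlapped on both.

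Suz12, the scaffold of PRC2, varied more from array to array than between the genotypes. Its main probe set, 1452364_at, was at 9.19, 9.21, 8.96, 8.98 and 8.93 in wildtype replicates 1, 2, 4, 6 and 7, and at 9.01, 9.30 and 8.76 in mutant replicates 3, 5 and 8. The mutants thus held both the highest and the lowest value, and the difference was -0.031 (SE 0.12). Mutant replicate 5 was highest on all 5 probe sets of Suz12, and mutant replicate 8 was lowest on 3 of them. On 1427253_s_at the 8 arrays spanned 0.57 on the log2 scale, from 9.25 in mutant replicate 8 to 9.82 in mutant replicate 5. The other probe sets of Suz12 differed by 0.12, -0.047, -0.033 and -0.0071, with groups that overlapped in each.

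The E3 ligases of PRC1 were Rnf2, also called RING1B, and Ring1, or RING1A. The main probe set of Rnf2, 1424873_at, was at 10.42, 10.42, 10.27, 10.15 and 10.35 in wildtype and at 10.32, 10.23 and 10.23 in the mutants. All mutant values lay within the wildtype range, and the difference was -0.062 (SE 0.078). The remaining 4 probe sets of Rnf2 gave -0.061, -0.063, 0.090 and 0.18, the last 2 from sets whose suffix marks possible cross-hybridisation. No direction is therefore given for Rnf2.

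Ring1 had a single probe set, at 8.58, 8.51, 8.58, 8.53 and 8.69 in wildtype and at 8.39, 8.54 and 8.96 in mutant testis. Mutant replicates 3 and 8 lay at opposite ends, with wildtype replicate 7 second highest, so the arrays with most spermatid transcripts carried the highest levels. Mutant replicate 8 exceeded the mean of the other mutants by 0.50, and wildtype replicate 7 exceeded the other wildtype arrays by 0.14. The difference was 0.051 (SE 0.12) over all 8 arrays, -0.088 without the pair and 0.27 within it.

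Phc1, a PRC1 subunit that carries a SAM domain as SCML2 does, followed the same order at the top. It was at 11.04, 11.00, 11.03, 11.04 and 11.11 in wildtype and at 10.95, 11.02 and 11.21 in mutant testis. The highest values were again those of mutant replicate 8 and wildtype replicate 7, which exceeded the rest of their own genotype by 0.22 and 0.081. The difference between genotypes was 0.019 (SE 0.073). On the main probe set of Ezh1 these arrays were likewise the highest, at 9.02 and 8.96, with the next at 8.94. The part of the spermatid share in the levels of Ring1, Phc1 and Ezh1 was not tested.

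Bmi1, the PCGF subunit that partners the ligases, was at 10.76, 10.77, 10.67, 10.63 and 10.72 in wildtype and at 10.53, 10.81 and 10.55 in mutant testis on its main probe set, 1417493_at. Mutant replicates 3 and 8 lay below the wildtype range and mutant replicate 5 above it, and the difference was -0.083 (SE 0.080). The second probe set, 1448733_at, differed by -0.040 (SE 0.100). Cbx2, the chromobox subunit that reads the methyl mark, was at 7.49, 7.57, 7.61, 7.50 and 7.46 in wildtype and at 7.61, 7.49 and 7.44 in the mutants on 1434116_at. Its groups overlapped over nearly the whole range, with a difference of -0.0092 (SE 0.068). The lower Cbx2 probe set, 1422059_at, gave 0.048 (SE 0.13).

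**Figure D4:**
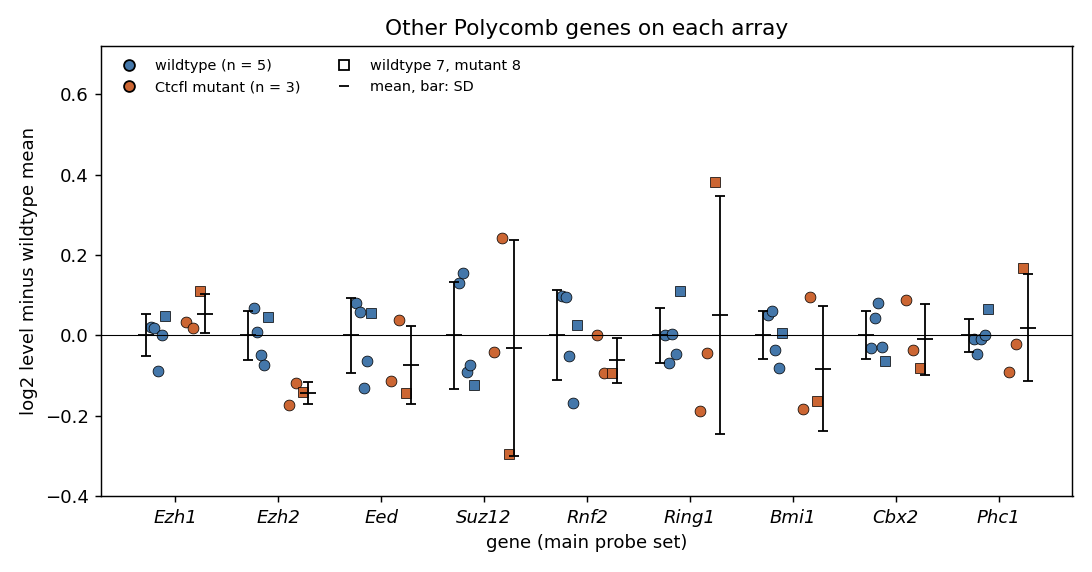
Log2 level on the main probe set of each of the 9 other genes (horizontal axis), as the difference from the wildtype mean of that gene (vertical axis), for 5 wildtype (blue) and 3 mutant (orange) arrays, with squares for wildtype replicate 7 and mutant replicate 8 and black bars for the mean and SD. The mutants lie below all wildtype arrays for Ezh2, and mutant replicate 8 is highest for Ring1 and Phc1 and lowest for Suz12.

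Over the 25 probe sets, mutant replicate 5 held the highest value for 9 and the lowest for 0. Those 9 included the 5 probe sets of Suz12 and both of Scml2, which are repeated readings of the same genes. Mutant replicate 3 held the highest for 1 and the lowest for 7, and mutant replicate 8 held the highest for 3 and the lowest for 6. The same counts over all probe sets were not made, so nothing is read from these. The SD within the mutant group was 0.30 for Ring1 and 0.27 for the main probe set of Suz12, against 0.07 and 0.13 within wildtype. It was the smaller of the pair for Ezh2, at 0.03 against 0.06, and for the main probe set of Rnf2, at 0.06 against 0.11, while for the main probe set of Ezh1 it was 0.05 in both groups.

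The wider Polycomb machinery was taken from lists of genes written by function. Among 29 probe sets of PRC2 accessory genes, such as Jarid2 and Mtf2, 0 passed an unadjusted p of 0.05, and the median difference was -0.0016. Among 43 probe sets of other PRC1 genes 1 passed, higher in the mutants, with a median of 0.028. The 17 probe sets of MBT proteins and other relatives of SCML2 had none and a median of -0.012. The lowest of them, 1441573_at of Scmh1, differed by -0.61 (SE 0.40) with groups that overlapped, and the other Scmh1 probe set by 0.024. Of 25 probe sets of deubiquitinases of H2A and their partners 1 passed, lower in the mutants, with a median of 0.0032. Of 12 probe sets of the histone H3 demethylases that oppose PRC2 1 passed, higher, with a median of 0.085. The 4 probe sets of Yy1, a DNA-binding protein of the group, had none and a median of 0.023. In all these lists together 2 of 130 probe sets were higher and 1 lower at that threshold, where 1.76% and 1.70% of all probe sets were, and 0 passed the limma adjusted p of 0.05. At that threshold these shares do not exceed those over all probe sets. The groups did not overlap for 3 of the 130, all higher in the mutants, and for 0 lower, where 1.38% and 1.31% of all probe sets did so. These 3 were of Cbx7, Kdm6a and Pcgf1, the last with a difference of 0.12 on 1427956_at, and they are too few to read a share from.

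The probe sets that passed the unadjusted threshold were those of Cbx7, Kdm6a and Asxl2. Cbx7, a chromobox subunit of PRC1, was at 7.01, 7.38, 6.88, 7.45 and 7.12 in wildtype and at 7.48, 7.61 and 7.49 in mutant testis on 1420039_s_at. The groups did not overlap but nearly touched, and the difference was 0.36 (SE 0.13), with an unadjusted limma p of 0.0179 and an adjusted p of 1.0. The suffix of this probe set marks possible cross-hybridisation, and the other 2 probe sets of Cbx7 differed by 0.095 and -0.0078.

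Kdm6a, an X-linked demethylase that removes the mark of PRC2, was at 4.23, 4.30, 4.36, 3.98 and 4.02 in wildtype and at 4.52, 4.91 and 4.45 in mutant testis on 1445198_at. All mutant values were higher, with a difference of 0.45 (SE 0.13), an unadjusted limma p of 0.00571 and an adjusted p of 1.0. This probe set is dim, with a mean level above 16.1% of all probe sets. The other 3 probe sets of Kdm6a gave 0.23 (SE 0.11), 0.11 and 0.019, and the groups overlapped on each. All 4 had a higher mean in the mutants. Mutant replicate 8 minus wildtype replicate 7 was -0.024, -0.20 and 0.15 on these 3 and 0.43 on 1445198_at. As for Scml2, the highest value on 1445198_at came from mutant replicate 5.

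Asxl2, a partner of the H2A deubiquitinase BAP1, was at 8.72, 8.83, 8.74, 8.56 and 9.13 in wildtype and at 8.61, 8.55 and 8.41 in mutant testis on 1460597_at. The groups overlapped, and wildtype replicate 7 stood highest. The difference was -0.27 (SE 0.12), with an unadjusted limma p of 0.0435 and an adjusted p of 1.0, and it was -0.13 without the pair of arrays that stood apart. Of the 5 probe sets of Asxl2, 2 were lower on average. Usp7, a deubiquitinase known to bind SCML2 and named for that role rather than for its values, had 7 probe sets with differences between -0.058 and 0.041, and the groups overlapped in each.

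The Hox genes, textbook targets of Polycomb silencing, were read by 49 probe sets of 34 genes. At the unadjusted threshold 1 was higher and 1 lower, close to the 1.76% and 1.70% over all probe sets, and the median difference was -0.010. The genes behind these calls are named by the same rule as those of the other lists. Hoxb6 was at 3.80 to 4.13 in wildtype and at 4.17, 4.14 and 4.36 in the mutants. The difference was 0.23 (SE 0.09), with an unadjusted limma p of 0.0262. The groups nearly touched, and the probe set of Hoxb6 is dim, with a mean level above 11.6% of all probe sets. Hoxa4 was at 5.29 to 5.56 in wildtype and at 5.22, 5.14 and 5.30 in the mutants on 1420226_x_at, a difference of -0.21 (SE 0.08) with an unadjusted p of 0.0234. The suffix of that probe set marks possible cross-hybridisation, and the second probe set of Hoxa4 differed by -0.13. The adjusted p by limma was 1.0 for both genes, and 36 of the 49 probe sets lay below the median mean level of the array.

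Genes with a profile most like that of Scml2 were sought among 20722 genes by the root mean square difference over the 8 arrays, after each profile had been centred on its mean. For the main probe set, 1421514_a_at, these were 4932442L08Rik, Hccs, Gm10336, Bdp1 and Tmtc4, with values from 0.042 to 0.047 on the log2 scale. The SD of that Scml2 probe set over the arrays was 0.13. Hccs, which encodes holocytochrome c synthase, was at 7.89, 7.87, 7.73, 7.73 and 7.99 in wildtype and at 7.89, 8.21 and 7.89 in mutant testis. Each of these 5 genes was highest in mutant replicate 5, as Scml2 was. The likeness is thus carried largely by 1 array.

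For 1456984_at, a choice made after its values had been seen, the nearest genes were Erdr1, Serpina3a, Prnd, LOC100047601 and 1700031C06Rik, with values from 0.11 to 0.17. Erdr1 was at 9.65, 9.85, 9.95, 9.89 and 10.19 in wildtype and at 10.25, 10.49 and 10.23 in mutant testis. Its 2 groups did not overlap, with wildtype replicate 7 nearest to the mutants, and the suffix of its probe set, 1452406_x_at, marks possible cross-hybridisation. Genes picked for likeness to a probe set selected on this contrast tend to share its gap, so nothing is read from this. Prnd, which encodes the prion-like protein doppel, was at 6.94 to 7.32 in wildtype and at 7.49, 7.50 and 7.47 in mutant testis. For LOC100047601 and 1700031C06Rik the groups overlapped.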

How the data were processed

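Testis RNA was measured on 8 Affymetrix Mouse430_2 arrays. The paper's methods state that the authors corrected the background by RMA and normalised by quantiles, and the deposited values are log2 levels per probe set and array. Sorted values of the arrays differed by at most 0.113. Software versions and the build of the annotation are not given in the sources used here. Further columns and 2 tables hold the authors' own comparisons, and were not used. Genotype and replicate came from the sample titles.

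All 45101 probe sets were fitted without a filter in limma 3.58.1 (lmFit, eBayes; R 4.3.3) with two-sided p-values adjusted by Benjamini-Hochberg. The fit was also run on simulated data with independent noise, which lack the shift of wildtype replicate 7 and mutant replicate 8. That run does not show how the fit behaves on these arrays. Other steps used Python 3.11.15. The 10 genes, the lists and the tests were chosen with earlier results of these data known. A probe set naming several genes was kept for the 10 genes, where this concerned only those of Scml2, and left out of the other lists. A main probe set carries no _s_ or _x_ in its ID where possible and has the highest mean. Named list genes are up to 3 per list and direction with the smallest unadjusted p under 0.05. Names came from Entrez IDs through RefSeq (GRCm38.p6). No probe set of its own was matched for Cbx6, L3mbtl1, L3mbtl4 and 5 Hox genes. Array numbers limit the precision. The alternatives left out each array or the pair that stood apart, centred arrays, repeated the quantile step, changed the prior, weighted arrays, dropped low probe sets, added a block for the pair or fitted without shared variance. Those of the prior, the low probe sets and the shared variance leave the fitted difference of a probe set as it was.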

Additional observations from a re-analysis of the deposited data

Results flagged for a closer look

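A single array far from the rest of its group was looked for in wildtype, over 33 measures made up of the 25 Polycomb probe sets and 8 marker lists. None of the Polycomb probe sets had such an array. Of the marker lists 3 did, in each case wildtype replicate 7; about 1 in 20 measures would do so by chance. The spermatid list was at 11.17, with the next wildtype array at 9.41. The Leydig list was at 8.78 with the next at 8.57, and the fat list at 7.54 with the next at 6.405. The 3 mutant arrays were too few to be examined in this way.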

How the results depend on the processing

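No paired analysis was made, because the labels give neither litter nor pair, although the paper describes the animals as littermates. By limma, 0 probe sets reached an adjusted p of 0.05, which held in 15 of 16 alternatives and was 1 with the block for wildtype replicate 7 and mutant replicate 8. The count of 1564 at an unadjusted p under 0.05 became 707 among probe sets above the median level, where fewer were tested, 2644 with the block and 2956 with both of these arrays left out. Leaving out 1 array at a time gave 1220 to 2649, the highest without mutant replicate 8. In the same way the Scml2 difference ranged from 0.45 to 0.65 on 1456984_at and from 0.028 to 0.20 on 1421514_a_at, where it was lowest without mutant replicate 5. With both arrays of the pair left out it was 0.70 and 0.21, the highest of the 16 alternatives. The median of the MBT list ranged from -0.053, without mutant replicate 5, to 0.0078 with 1 array left out, and was 0.0090 without the pair. The median of the member probe sets ranged from -0.046 to 0.027 with 1 array left out. The sign turned in at least 1 alternative for Ring1, Phc1, Bmi1 (1448733_at) and both Cbx2 probe sets, for 4 probe sets of Suz12 and for 2 each of Rnf2 and Ezh1. The cause was not tested. With 5 against 3 arrays and no detection calls, levels below the array median give little information on change.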

Other observations

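Scml2 and Kdm6a lie on the X chromosome, and X-linked probe sets were therefore summarised after these values had been seen. Of 1138 X-linked probe sets, 63.2% had a higher mean in mutant testis, against 51.9% of 32750 autosomal ones, and the median differences were 0.037 and 0.0039 on the log2 scale. The groups did not overlap, with the mutants higher, for 2.55% of X-linked and 1.36% of autosomal probe sets, and with the mutants lower for 0.791% and 1.27%. Without mutant replicate 5 the X-linked median was 0.012, with 54.7% higher, and without mutant replicate 8 it was 0.074. Without both arrays that stood apart it was 0.062. No test was made of this difference, since probe sets of 1 array are not independent.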
